A study of Mus musculus with 48 samples.

Results

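The RNA of hippocampal CA neurons was set against the RNA of the whole hippocampal CA tissue, in control mice only. The samples were the 3 RNA libraries labelled as CA neurons and the 6 labelled as CA whole tissue, 9 of the 48 libraries of the series, and the members were the 47569 Ensembl gene IDs present in the count tables of both materials. All 9 libraries came from adult C57BL/6J mice of 4 to 6 months with the genotype given as Control, and the labels do not say which alleles or Cre driver these controls carry. The series as a whole compares such controls with mice carrying a conditional knockout (cKO) of Setd1b, which encodes a histone methyltransferase. Trizol extraction from whole tissue is the only RNA isolation the protocol describes, and sorting by flow cytometry is described only for the fixed neuronal nuclei used in ChIP. How the neuron RNA was obtained is therefore not given in the sources used here, nor is whether animals were pooled.

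The CA fields hold pyramidal neurons and interneurons among astrocytes, oligodendrocytes, microglia and the cells of blood vessels, so whole-tissue RNA is a mixture of all of these. Within a neuron, newly made transcripts and many long noncoding RNAs (lncRNAs) lie in the nucleus, most messenger RNAs of synaptic and metabolic proteins lie in the cytoplasm, part of them out in the dendrites, and the transcripts of the mitochondrial genome lie inside mitochondria. In bulk RNA, fewer cells of a type and less RNA per cell cannot be told apart.

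The neuron libraries held 60.6, 62.1 and 69.1 M counted reads and those of whole CA between 14.9 and 20.1 M. The materials also differ in the instrument tag of their file names and in the layout of their count tables, so the cells, the depth and the processing cannot be told apart by design. In the neuron libraries, transcripts of X inactivation and of the Y chromosome went against a single sex per library, while each whole CA library carried those of 1 kind. Xist, which is expressed from the inactive X of female cells, was at 1294, 1858 and 1551 CPM in the neuron libraries, and the Y-linked Ddx3y was at 29.6, 64.8 and 50.2 CPM in the same 3 libraries. Whole CA replicate 4 had Xist at 614 CPM and Ddx3y at 0.0635 CPM, while the other 5 whole CA libraries had Xist between 0.122 and 0.292 CPM and Ddx3y between 72.8 and 79.5 CPM. Sex is not in the labels. Levels are given in CPM, the usual counts scaled per library size, here with TMM factors that offset differences in composition between libraries. After ±, a CPM value has its SD over the 3 neuron or 6 whole CA libraries, and a log2 difference has its SE.

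The split between the materials ran through most of the measured genes. Of 16859 genes with enough counts to test, 14098 differed at an adjusted p under 0.05, which is 83.6% (edgeR quasi-likelihood test, Benjamini-Hochberg adjustment). Below, a gene is called higher or lower only where it also differed by at least 2-fold. By that rule 4257 genes (25.3%) were higher in neuron RNA and 3536 (21%) were lower. The low side reached further, since 354 genes were lower by at least 32-fold and 27 were higher by as much. Without whole CA replicate 4 the counts were 4289 and 3545. For 12939 tested genes (76.75%) the libraries of the materials did not overlap, so lack of overlap alone does not set a gene apart. A gene that reached the minimum of 0.563 CPM in the libraries of 1 material only was tested because of that material, which favours a difference in its direction: 823 genes passed through neuron libraries alone, 964 through whole CA libraries alone and 15072 in both.

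**Figure D1:**
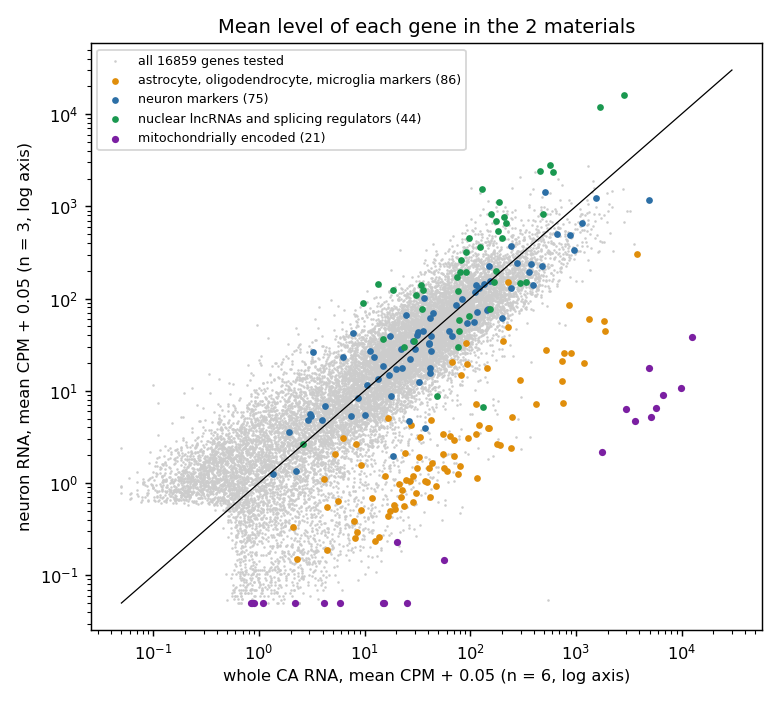
Mean CPM of each of the 16859 tested genes in whole CA RNA (n = 6, horizontal log axis) and neuron RNA (n = 3, vertical log axis), with 0.05 added to each mean and the diagonal marking equal levels. Mitochondrially encoded genes lie far below the diagonal and markers of 3 glial types lie below it. Neuron markers lie on both sides of it, and most nuclear lncRNAs and splicing regulators lie above it.

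Transcripts of the mitochondrial genome were almost lost from neuron RNA. They made up 0.00815, 0.0116 and 0.0128% of the counted reads in the neuron libraries and between 4.33 and 6.17% in whole CA. The means were 0.0108% ± 0.0024 (SD, n = 3) and 5.14% ± 0.66 (SD, n = 6), the ratio of the geometric means was 479, and the groups did not overlap (two-sided exact permutation test over libraries, p = 0.02381, the smallest value that 84 splits allow). The transcript of mt-Co1, the catalytic subunit of cytochrome c oxidase, was at 29.8, 38.9 and 46.3 CPM in neuron RNA and had a median of 12300 CPM in whole CA (lowest 10850, highest 14530). Cytochrome b (mt-Cytb) had 8.76, 10.9 and 12 CPM against a whole CA median of 9474 CPM, a log2 difference of -9.86 ± 0.18 (SE; edgeR adjusted p = 3.712e-16). All 21 of the 37 mitochondrially encoded genes that could be tested were lower, with a median log2 difference of -9.52, against 0.07 over all tested genes; 12 of them passed the minimum through whole CA alone. The mitochondrial tRNA for leucine, mt-Tl1, had no read in the neuron libraries and 22 to 29.7 CPM in whole CA, which places it at least 580-fold lower against a floor of 3 counts per library. Among genes with at least 10 CPM in whole CA and an established name, the 10 largest falls were all of mitochondrially encoded genes.

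The nuclear genes of the same respiratory chain fell too, by far less. Of 83 tested subunit genes 63 were lower and 2 were higher, with a median log2 difference of -1.51. Cox6b1, another subunit of cytochrome c oxidase, was at 21.6, 20.2 and 22 CPM in neuron RNA and at 169 to 199 CPM in whole CA (log2 difference -3.06 ± 0.08). Ndufb9, a subunit of complex I, was at 20.3, 21.1 and 19.9 CPM against 133 to 164 CPM. Both genes were low in each neuron library with no overlap between materials. The 2 exceptions were Atp5g2, a subunit of the ATP synthase, at 7.75 CPM ± 0.11 in neuron RNA and 0.869 ± 0.24 in whole CA, and Cox7c at 20.3 ± 2.4 and 5.35 ± 1.5.

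Other cytoplasmic housekeeping classes leaned the same way. In each class below the lower share was above the 21% of all tested genes, by least for translation factors. Of 37 tested proteasome subunits 17 were lower and 1 was higher (median log2 difference -0.91). Mitochondrial ribosomal proteins gave 25 lower and 5 higher of 77 (median -0.56), and translation initiation and elongation factors with related genes gave 19 lower and 5 higher of 64 (median -0.48). The Y-linked Eif2s3y, whose level depends on the sex of the animals, is among the 5 higher translation factors. Glycolytic enzymes gave 6 lower and 1 higher of 16 (median -0.69). The fall of Aldoc, the aldolase that astrocytes express, was the largest of these, from 904 CPM ± 47 to 25.8 ± 3.1. Aldoa, the form found in neurons as well, went from 1372 CPM ± 49 to 498 ± 32, and Hk1, the hexokinase of brain, from 444 ± 16 to 175 ± 20. Gapdh was the exception, at 201, 185 and 206 CPM in neuron RNA and 76.4 to 107 CPM in whole CA. The levels of Gapdh are uncertain, since near-identical pseudogene copies can share its reads.

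Cytosolic ribosomal proteins did not move as a class. Of 82 tested members 34 were higher and 13 were lower, with a median log2 difference of 0.66, and single members ranged from Rpl13a, at 12.3 CPM ± 0.27 in neuron RNA and 145 ± 13 in whole CA, to Rpl19, at 23.7 ± 1.3 and 0.999 ± 0.46. All higher calls but 5 lay among the 37 members with less than 10 CPM in whole CA, where 29 were higher and none was lower (median 2.76). Among the 45 members with at least 10 CPM in whole CA, 5 were higher and 13 lower, and the median was -0.39. A pseudogene named after the gene exists for 31 of the 37 and for 30 of the 45. That subset was added after the values were seen, and it is cut on the level in one of the materials compared, so it describes where the calls lie and tests nothing. Cytoplasmic gamma-actin, Actg1, showed the same pattern, with 55.5, 47.6 and 52.0 CPM in neuron RNA and 0.428 to 1.27 CPM in whole CA. The counting of reads shared between near-identical copies was not given for either material, and levels of these genes are uncertain for that reason. Of 207 protein-coding genes outside the ribosomal proteins with a pseudogene named after them, 20.8% were higher and 26.6% lower. Over all protein-coding genes the shares were 18.9% and 22.8%. The span of Rpl19 also overlaps that of Cacnb1. Whether shared reads account for the calls was not tested.

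Markers of glia and of vessels were lower in neuron RNA almost without exception. The 28 astrocyte markers gave 27 lower and none higher (median log2 difference -4.82), the 28 oligodendrocyte markers gave 28 lower (median -4.55), and the 30 microglial markers gave 30 lower (median -5.0). Of 26 endothelial markers 23 were lower (median -5.02), as were all 17 tested mural markers (median -4.80). Oligodendrocyte precursor markers gave 9 lower of 12, fibroblast and meningeal markers 9 of 13, choroid plexus and ependymal markers 9 of 10 and erythroid genes 5 of 5, with none higher. Part of the members passed the minimum through whole CA alone, 8 of the microglial, 11 of the endothelial and 9 of the mural genes among them, which favours a lower call. Of the 15 endothelial members that passed in both materials 12 were lower, with a median of -2.28. The summed level of each full list does not depend on the filter.

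**Figure D2:**
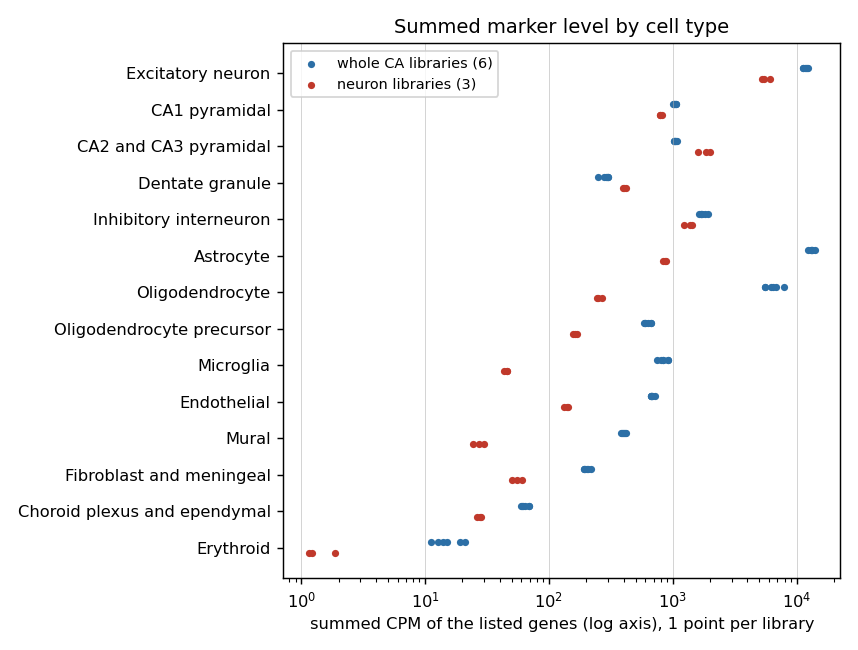
Summed CPM of every listed marker of 14 cell types in each library (log axis, 1 point per library, 6 whole CA in blue and 3 neuron in red). Every sum is lower in all 3 neuron libraries except the dentate sum and the CA2 and CA3 sum, which are higher; the falls run from 1.30-fold for CA1 and interneuron markers and 2.09-fold for excitatory markers to 25-fold for oligodendrocyte markers.

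Folds of summed levels are ratios of geometric means. Summed over the list, astrocyte markers were at 877, 869 and 840 CPM in neuron RNA and between 12250 and 14100 CPM in whole CA, 15.3-fold lower. Oligodendrocyte markers were at 249, 270 and 246 CPM against 5554 to 7903 CPM (25-fold lower), and microglial markers at 45.9, 46.2 and 43.7 CPM against 747 to 914 CPM (18.6-fold lower). The sums fell 14.7-fold for mural cells, 10.9-fold for erythroid genes, 4.92-fold for endothelium, 3.84-fold for oligodendrocyte precursors, 3.62-fold for fibroblasts and 2.32-fold for choroid plexus and ependyma. None of these groups overlapped, and each had p = 0.02381, raw and adjusted over 14 tests (two-sided exact permutation test over libraries). That is the smallest value that 84 splits allow, and all 14 sums had it, so it sets no list apart from another. The lists were chosen with earlier results of these data known. The defining genes were low but above 0 in the neuron libraries. Gfap, the intermediate filament of astrocytes, was at 7.87, 7.70 and 5.79 CPM against a whole CA median of 423 CPM (lowest 345, highest 519; log2 difference -5.88 ± 0.17, edgeR adjusted p = 1.805e-14). Mbp, the basic protein of myelin, was at 60.03, 56.9 and 52.6 CPM against 1622 CPM (1542 to 2616; log2 difference -5.03 ± 0.18). Cx3cr1, the fractalkine receptor of microglia, was at 1.89, 2.0 and 1.79 CPM against 70.2 CPM (64.8 to 74.2; log2 difference -5.21 ± 0.10), and Flt1, a VEGF receptor of endothelium, at 0.507, 0.534 and 0.445 CPM against 84.1 CPM (70.1 to 98.9; log2 difference -7.40 ± 0.15).

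The endothelial and choroid plexus sums each held an abundant member that was not lower. In the endothelial list Cd34 was at 68.3 CPM in neuron RNA and 48.4 CPM in whole CA (log2 difference 0.50, under 2-fold), and in the choroid plexus list Kl, a hormone co-receptor that hippocampal neurons express too, overlapped between materials at 25.5 CPM ± 1.1 and 28 ± 3.0. Ttr, the defining transport protein of choroid plexus, was at 0.123, 0.0593 and 0.108 CPM against 2.09 to 9.07 CPM. Cd34 was named after its value was seen. The fibroblast and meningeal sum also depended on 1 member. Its log2 difference was -1.86, and -3.03 without the highest member of the list.

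Markers of excitatory neurons, of CA1 and of interneurons were not higher as groups, and their sums were lower. The excitatory sum was at 6116, 5442 and 5283 CPM in neuron RNA against 11160 to 12380 CPM in whole CA, 2.09-fold lower. The CA1 sum was at 815, 783 and 781 CPM against 995 to 1061 CPM and the interneuron sum at 1231, 1366 and 1422 CPM against 1620 to 1936 CPM, both 1.30-fold lower. None of these sums overlapped (two-sided exact permutation test over libraries, p = 0.02381 each, again the smallest value possible). Their log2 differences were -1.07 for excitatory, -0.38 for CA1 and -0.38 for interneuron markers. Without the highest member of each list they were -0.61, -0.17 and -0.31. Of 15 excitatory markers 1 was higher and 4 were lower (median log2 difference -0.66), and of 7 CA1 markers none was higher and 1 was lower (median -0.31). Of 29 tested interneuron markers 1 was higher and 5 were lower (median -0.09, which turned to 0.07 when libraries were scaled by size only). The lower shares were under the 21% of all tested genes for CA1 and interneuron markers and somewhat above it for excitatory markers. Slc17a7, the vesicular glutamate transporter of these excitatory cells, was at 1400, 1201 and 1133 CPM in neuron RNA against 1421 to 1682 CPM in whole CA (log2 difference -0.32 ± 0.08, edgeR adjusted p = 0.002138), a difference under 2-fold. Camk2a, the abundant calmodulin kinase whose mRNA is carried into dendrites, was at 1323, 1042 and 1112 CPM against 4697 to 5398 CPM (log2 difference -2.09 ± 0.09). Neurod6, a transcription factor of pyramidal cells, was also lower, at 141 CPM ± 19 against 397 ± 52. Slc30a3, the zinc transporter of synaptic vesicles, was the 1 higher member, at 102 CPM ± 12 against 36.5 ± 5.9. The GABA-synthesising enzymes Gad1 and Gad2 had log2 differences of -0.68 and -0.89, and the vesicular GABA transporter Slc32a1 overlapped between materials (39.1 CPM ± 2.1 and 42.6 ± 8.4). Within the interneuron list Pvalb, the calcium buffer of fast-spiking cells, went from 37.2 CPM ± 3.1 to 3.88 ± 0.46, and Adarb2, a marker of interneurons from the caudal ganglionic eminence, from 24.8 ± 1.3 to 67.0 ± 2.6.

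Markers of dentate granule cells, which lie outside the CA fields, were present in both materials and higher in the libraries labelled as CA neurons. Of 11 markers 5 were higher and none was lower by 2-fold (median log2 difference 0.91), while 1 was lower by less (log2 difference -0.70, adjusted p under 0.05). The summed level was 420, 403 and 395 CPM in neuron RNA against 250 to 301 CPM in whole CA (1.42-fold higher, exact permutation p = 0.02381, the smallest value possible). The log2 difference of the sum was 0.51, and 0.98 without the highest member of the list. Prox1, the transcription factor that defines granule cells, was at 69.3, 72.6 and 66.6 CPM against 34.8 to 50.5 CPM, a difference under 2-fold. C1ql2, a secreted protein of mossy fibre synapses, was at 48.9, 40 and 36.4 CPM against 3.96 to 11.6 CPM (log2 difference 2.45 ± 0.19). Plk5 was at 30.2, 23.3 and 25.7 CPM against 1.14 to 5.26 CPM (log2 difference 3.03 ± 0.25). Both were higher in every neuron library than in any whole CA library. The sum over CA2 and CA3 markers was also higher (1611 to 2006 against 1014 to 1075 CPM, 1.75-fold), but 1 member, Cpne7, carried it, with 1423 CPM ± 189 in neuron RNA and 506 ± 20 in whole CA. Without Cpne7 the log2 difference of the sum was -0.41. Pcp4, a calmodulin-binding protein of CA2, went the other way, at 1.55, 2.15 and 2.02 CPM against 16.6 to 21.5 CPM.

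Long noncoding RNAs took a larger share of neuron RNA and were more often higher than protein-coding genes were. Genes that RefSeq lists as lncRNA took 4.89, 4.85 and 5.26% of counted reads in the neuron libraries and 1.02 to 1.19% in whole CA. Of 937 tested lncRNA genes 46.7% were higher and 12.5% were lower, and among the 762 that passed the minimum in both materials 345 were higher and 48 were lower. For protein-coding genes 18.9% of 14159 were higher and 22.8% were lower. Meg3 (chr12:109540996-109571729, GRCm38.p6 per RefSeq), an imprinted lncRNA expressed from the maternal allele, was the most abundant transcript of each neuron library, at 16980, 14650 and 16900 CPM against a whole CA median of 2748 CPM (lowest 2660, highest 3207; log2 difference 2.51 ± 0.07, edgeR adjusted p = 2.172e-14). Snhg11 (chr2:158375713-158386474), a neuronal host gene of small nucleolar RNAs (snoRNAs), was at 11140, 11900 and 12980 CPM against 1683 CPM (1583 to 1851; log2 difference 2.82 ± 0.07). The lowest neuron library was above the highest whole CA library for both. Of all tested genes, 76.75% were likewise without overlap, in either direction.

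Of 13 nuclear lncRNAs picked by name, 9 were higher, 3 were lower and 1 was not called (median log2 difference 2.30). Malat1, the lncRNA of nuclear speckles, was at 2275, 1865 and 2902 CPM against 502 to 804 CPM (log2 difference 1.96 ± 0.14). Kcnq1ot1, the antisense RNA of an imprinted potassium channel locus, was at 72.7, 91.0 and 104 CPM against a median of 7.72 CPM (7.13 to 17.8; log2 difference 3.21 ± 0.21), and whole CA replicate 2 was the highest of its group. The kit does not mark strand, so reads of Kcnq1ot1 and Snhg14 cannot be told apart from those of the genes they overlap. Neat1, the scaffold of paraspeckles and a neighbour of Malat1 on chromosome 19, stood against its class, at 5.98, 6.01 and 7.68 CPM against 116 to 153 CPM (log2 difference -4.34 ± 0.13, edgeR adjusted p = 2.371e-14). Pantr1 and Peg13 were the other lower members, at 8.82 CPM ± 0.47 against 48.8 ± 4.3 and at 151 ± 3.1 against 337 ± 7.4.

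**Figure D3:**
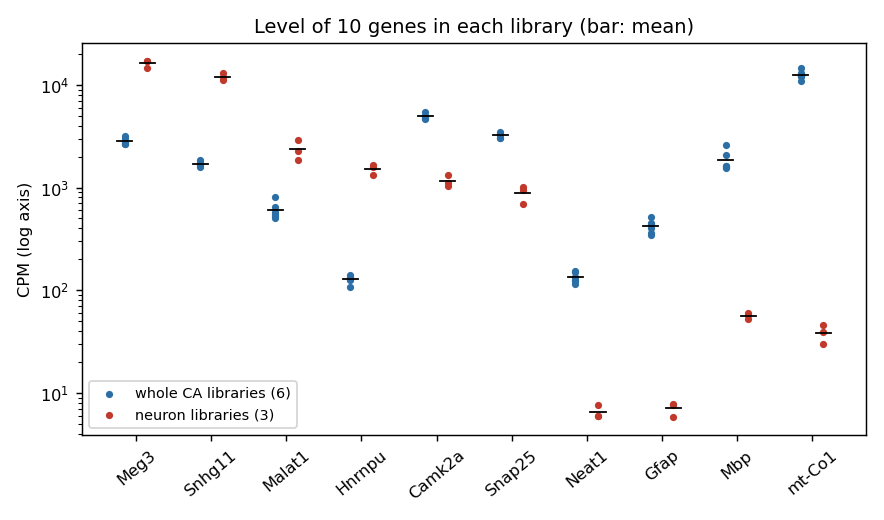
CPM of 10 genes in each library (log axis, 6 whole CA points in blue and 3 neuron points in red, black bars the means). Meg3, Snhg11, Malat1 and Hnrnpu are higher in all 3 neuron libraries, and Camk2a, Snap25, Neat1, Gfap, Mbp and mt-Co1 are lower, without overlap.

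Host genes of snoRNAs, and snoRNA genes themselves, were counted more in neuron RNA. Among 14 host genes of snoRNAs named Snhg, 12 could be tested, 10 were higher and Snhg18 was the 1 lower member (median log2 difference 1.75); Snhg20 was at 68.1 CPM ± 3.6 against 7.85 ± 1.6. Genes that RefSeq lists as snoRNA took 0.0109 to 0.0126% of neuron reads and 0.00197 to 0.00252% of whole CA reads. Of these, 51 could be tested and 49 were higher. Of the 51, 37 passed the minimum through neuron libraries alone, and of the 13 that passed in both, 12 were higher. A separate list picked small nucleolar and Cajal body RNA genes by symbol, and 32 of them could be tested. Of these, 24 passed the minimum through neuron libraries alone, which favours a higher call. Of the 7 that passed in both, 6 were higher. Snord69 was at 3.60, 6.10 and 6.45 CPM against 0.415 to 1.22 CPM. Reads over a snoRNA gene can come from the host transcript that holds it, so these values need not be levels of the mature snoRNA.

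MicroRNA genes were mostly higher one by one, but their summed level overlapped between materials, and 1 abundant member was far lower. Genes that RefSeq lists as microRNA took 0.0132 to 0.0156% of neuron reads and 0.0093 to 0.0219% of whole CA reads. The sum over genes with a microRNA symbol was 130 CPM ± 12 in neuron RNA and 160 ± 52 in whole CA. What is counted there are reads over the hairpin locus, which can come from a primary or host transcript, so these values are not levels of the mature microRNA. The 39 testable genes with a microRNA symbol gave 36 higher and 2 lower. However, 28 passed through neuron libraries alone, and of the 10 that passed in both 8 were higher and 1 was lower. RefSeq (GRCm38.p6) held mature sequences for 36 of them, and 33 lie inside the span of another gene. The following are the mature sequences of the 3 higher genes that the naming rule picked, then those of Mir374b and Mir341, chosen after their values were seen because of the genes that hold them; capitals mark the seed, bases 2 to 8, which pairs with target mRNAs.
mmu-miR-186-5p: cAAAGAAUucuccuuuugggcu
mmu-miR-421-5p: cUCAUUAAauguuuguugaau
mmu-miR-5125: uCUGCCUGggauuuccuugu
mmu-miR-374b-5p: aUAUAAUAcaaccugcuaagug
mmu-miR-341-5p: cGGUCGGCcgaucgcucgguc
The 58 mature sequences of the matched genes had 58 different seeds, so none could be grouped by a shared seed.

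The hairpin of Mir186 (chr3:157544279-157544349, plus strand) lies inside Zranb2, which encodes a splicing protein. Mir186 was at 5.67, 12.1 and 8.49 CPM in neuron RNA against 0.763 to 1.52 CPM (log2 difference 2.87 ± 0.24), and Zranb2 had a log2 difference of 2.11 ± 0.12. Mir421 (chrX:103572921-103572996, minus strand) and Mir374b (chrX:103573060-103573154, minus strand) both lie inside Ftx, a lncRNA of the X-inactivation centre. Mir421 was at 5.92, 5.74 and 5.84 CPM against 0.292 to 0.826 CPM, and Ftx itself was at 290, 366 and 363 CPM against whole CA values from 18.8 to 26.5 CPM (log2 difference 3.97 ± 0.11, edgeR adjusted p = 1.042e-14). Whole CA replicate 4, the library with Xist, had Ftx at 18.9 CPM, within the range of the others. Mir5125 (chr17:23823291-23823369, plus strand) lies inside Srrm2, a scaffold protein of nuclear speckles, and was at 34.8, 18 and 27.4 CPM against 3.50 to 5.37 CPM, with Srrm2 at a log2 difference of 1.20 ± 0.10. Of 25 distinct holding genes that were tested, 15 were higher and 2 were lower. Mir6236 was the abundant lower member, at 8.41, 4.69 and 6.07 CPM against a wide whole CA range of 74.8 to 200 CPM. On average it made up 136 of the 160 CPM summed over microRNA genes in whole CA, and 6.39 of the 130 CPM in neuron RNA. The overlap of the sums therefore depends on this gene. No holding gene was found for Mir6236 here, and the source of its reads was not tested.

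Genes of nuclear RNA processing were higher as mRNAs. Of 31 splicing regulators of the Srsf and Hnrnp kind 19 were higher and 3 were lower (median log2 difference 1.18). Hnrnpu, a nuclear matrix protein that binds RNA, was at 1321, 1663 and 1597 CPM against 107 to 140 CPM (log2 difference 3.58 ± 0.09, edgeR adjusted p = 4.479e-15). Srsf5, a serine and arginine rich splicing factor, was at 1041, 1142 and 1138 CPM against 179 to 198 CPM (log2 difference 2.56 ± 0.06). The 3 lower members were Hnrnpab at -1.36, Hnrnpc at -1.01 and Hnrnpul2 at -1.01 on the log2 scale. The last pair lie at the 2-fold limit, and both fell short of it with library-size scaling (-0.85 and -0.84), without the filter (-0.95 and -0.94), without neuron replicate 1 (-0.91 and -0.996) and without whole CA replicate 3 (-0.98 and -0.998); Hnrnpul2 also did without neuron replicate 2 (-0.99). Of 32 histone methylation and acetylation genes 8 were higher, which is near the 25.3% of all tested genes, and none was lower (median 0.48). The largest was Hdac1, a histone deacetylase, at 43.6, 41.3 and 41.4 CPM against 6.41 to 8.27 CPM, followed by the H3K4 methyltransferase gene Kmt2a at 611 CPM ± 74 against 204 ± 25. Setd1b, the gene that the series deletes, overlapped between materials in these controls (50.3 CPM ± 9.2 and 40.9 ± 8.8). Zinc finger genes named Zfp gave 97 higher and 17 lower of 359 (median 0.50), again a higher share near that of all tested genes.

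**Figure D4:**
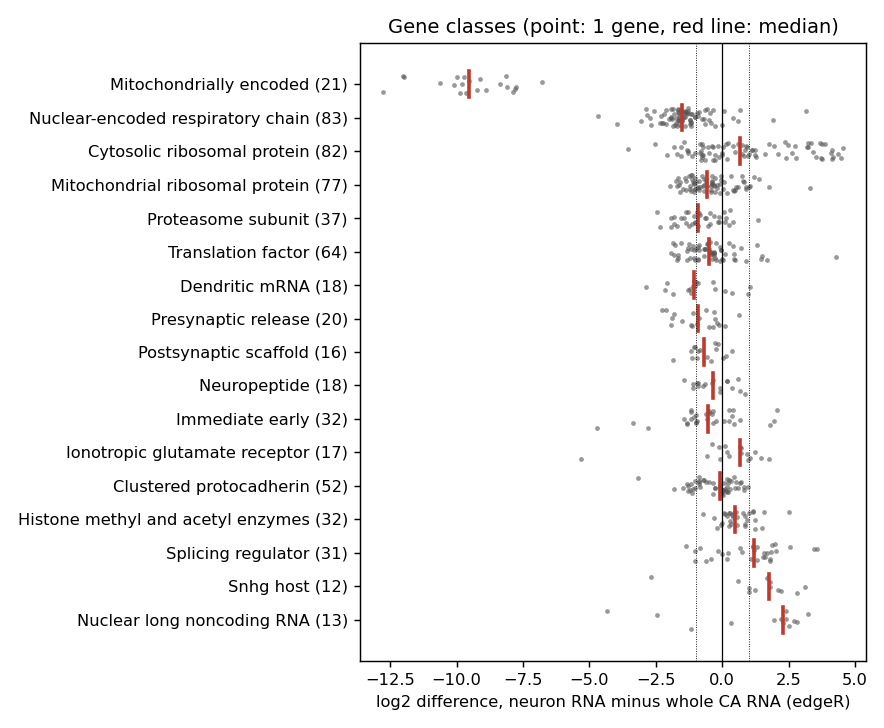
Log2 difference of neuron RNA minus whole CA RNA for each tested gene of 17 classes (1 grey point per gene, red line the median, dotted lines at a 2-fold difference, gene number in brackets). Medians run from -9.52 for mitochondrially encoded genes, through values below 0 for respiratory chain, proteasome and synaptic classes, to 2.30 for nuclear lncRNAs.

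The mRNAs of synapses and dendrites lay on the lower side. Of 18 mRNAs known to be carried into dendrites 10 were lower and 1 was higher (median log2 difference -1.06), of 20 genes of presynaptic release 9 were lower and none higher (median -0.90), and of 16 postsynaptic scaffold genes 5 were lower and none higher (median -0.69). The lower share of each list was above the 21% of all tested genes, by least for the postsynaptic scaffold genes. Some genes stand in more than 1 of these lists. Snap25, a SNARE protein of vesicle fusion, was at 690, 936 and 1014 CPM against 3015 to 3441 CPM (log2 difference -1.87 ± 0.11, edgeR adjusted p = 5.965e-11). Ppp1r9b, the spine protein spinophilin, was at 177, 150 and 143 CPM against 980 to 1276 CPM (log2 difference -2.86 ± 0.11), and Ddn, the dendritic protein dendrin, at 472, 396 and 377 CPM against 1527 to 2165 CPM. Dlg4, which encodes the scaffold PSD-95, fell from 808 CPM ± 71 to 225 ± 26. The complexins Cplx1 and Cplx2 and the vesicle SNARE Vamp2 had log2 differences of -2.25, -2.12 and -1.93. Stx1a, a syntaxin of the same machinery, overlapped between materials at 90.9 CPM ± 8.2 and 99.4 ± 7.2. The exception among dendritic mRNAs was Gria2, the AMPA receptor subunit that limits calcium entry, at 2120, 3147 and 2854 CPM against 1169 to 1399 CPM (log2 difference 1.04 ± 0.10). That gain drops under 2-fold without neuron replicate 2 (log2 difference 0.92) or with whole CA replicates 1 to 3 alone (0.97).

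Receptor and channel genes had calls in both directions. In none of the classes below was the higher share above 25.3% or the lower share above 21%, the shares over all tested genes. Of 17 tested ionotropic glutamate receptor genes 4 were higher, near the share of all tested genes, and 1 was lower (median log2 difference 0.67). The kainate receptor subunit Grik2 was at 197, 257 and 236 CPM against 61.5 to 70.7 CPM (log2 difference 1.77 ± 0.08). The single lower gene was Grin2c, an NMDA receptor subunit known from cerebellum and astrocytes, at 1.31, 1.19 and 0.863 CPM against 41.0 to 47.5 CPM (log2 difference -5.31 ± 0.13). Sodium and calcium channel genes gave 7 higher and 3 lower of 35 (median 0.24), led by the sodium channel Scn9a at 25.1 CPM ± 3.1 against 3.23 ± 0.50. Potassium channel genes gave 9 higher and 11 lower of 75, with a median of 0.03 that changed sign with upper-quartile scaling and without neuron replicate 1 (-0.02). Their extremes were Kcnj10 and Kcnj16, the inward rectifiers of glia, at 2.29 CPM ± 0.34 against 303 ± 25 and 0.438 ± 0.074 against 36.7 ± 4.8. On the higher side stood Kcnt1, a sodium-activated potassium channel, at 273 CPM ± 29 against 74.5 ± 7.0. Among 7 metabotropic glutamate receptors Grm2 was higher (63.5 CPM ± 8.1 against 20.04 ± 4.2) and Grm3, which glia express, was lower (6.73 ± 0.30 against 55.2 ± 5.6). GABA-A receptor genes gave 1 higher and 2 lower of 13 (median -0.19). The higher one was Gabrd, the delta subunit of tonic inhibition, at 41.8, 38.1 and 35.5 CPM against 12.6 to 17.2 CPM.

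Immediate early genes, which neurons switch on within minutes of activity, split within the class. Of 32 genes 3 were higher and 10 lower (median log2 difference -0.54), and 3 of the lower ones passed the minimum through whole CA alone. Npas4, an activity-dependent transcription factor of neurons, was at 30.4, 29.3 and 29.6 CPM against 4.92 to 11.6 CPM (log2 difference 1.80 ± 0.16). Junb was at 36.8, 33.1 and 31.7 CPM against 4.19 to 10.9 CPM, and Egr4 at 13.7 CPM ± 2.2 against 3.49 ± 0.66. Fos, the best-known member, overlapped between materials, at 2.48, 3.87 and 4.99 CPM against 2.48 to 11.5 CPM, and Fosb was lower (2.61 ± 0.12 against 6.52 ± 1.1). The neuropeptide genes gave 3 lower and none higher of 18, with Npy at 15.5 CPM ± 0.19 against 41.9 ± 4.7. Neurexins and partner adhesion genes gave 2 higher and 2 lower of 22 (median -0.30), where the catenin gene Ctnna2 was lower (56.2 CPM ± 3.5 against 136 ± 3.8) and the large membrane proteins Csmd1 and Csmd3 were higher (log2 differences 1.40 and 1.63). Clustered protocadherins gave 12 lower and none higher of 52, a lower share near the 21% of all tested genes. Their median of -0.09 turned to 0.07 when libraries were scaled by size only. Pcdhgc3 was the largest fall, from 26.2 CPM ± 3.0 to 2.95 ± 0.17. The lower shares of the neuropeptide and adhesion genes were under 21%.

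Gene models without an established name were over-represented among the higher calls. Of 1595 tested genes with a Gm symbol 1078 were higher and 137 lower; 450 passed the minimum through neuron libraries alone, and of the 1036 that passed in both 632 were higher and 45 lower. Riken transcripts gave 357 higher and 104 lower of 827, and 79 passed the minimum through neuron libraries alone. Of the 699 that passed in both 280 were higher and 60 lower. Over all tested genes 25.3% were higher and 21% lower. Gm45837 had 1 read in all neuron libraries together and 54456 reads in whole CA, where it was at 508 to 597 CPM. Among genes with an established name, the rule for the 10 largest gains listed Ntn5, Actg1, Rpl19, Sorbs2os, Rps27, C1qtnf4, Rps6, Spata33, Prr7 and Rpl9. Ntn5, a netrin, was at 14.1, 10.1 and 9.96 CPM with only 5 reads over all whole CA libraries, and its span overlaps that of Sec1. Sorbs2os is antisense to Sorbs2, and without strand their reads cannot be told apart. C1qtnf4, a secreted protein of the C1q family, was at 113, 94.2 and 84.5 CPM against 2.22 to 10.1 CPM, and Prr7, a membrane protein of the postsynaptic density, at 50.4, 38.2 and 35.6 CPM against 1.22 to 5.4 CPM. Of genes with a RefSeq span, 53.4% of the higher, 44.1% of the lower and 49.2% of all tested overlapped another gene.

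Median differences followed no order of gene length. Protein-coding genes in 5 equal groups by genomic span, from the shortest to the longest, had median log2 differences of -0.18, -0.01, 0.00, -0.02 and -0.17. The share called higher was 14% in the longest group and 19.5 to 20.7% in the other 4, and the share called lower was 25.8% in the shortest and 21.7 to 22.5% in the others.

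The same comparison in the cKO animals, 3 neuron and 6 whole CA libraries that share no sample with the controls, gave 4359 higher genes (25.6% of 17014) and 3564 lower (20.9%). Of the 7793 genes called in controls, 7024 were called in the same direction in cKO libraries, which is 90.13% of the control calls and 88.65% of the 7923 cKO calls, and none was called in the opposite direction. Meg3 had a log2 difference of 2.47 there, Hnrnpu 3.76, Neat1 -4.06, Gfap -5.99 and mt-Cytb -9.77. Npas4 had 0.89 in cKO libraries against 1.80 in controls, and Mir6236 had -2.01 against -4.41; these differences between genotypes were not tested. The cKO libraries share the isolation, the depth gap and the processing of the controls, so the repetition covers the spread between libraries and not those steps.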

How the data were processed

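Read counts per Ensembl gene ID were used as the authors deposited them, 1 table per library, for the control libraries and, as a repeat, the 9 cKO libraries. RNA libraries were made with a TruSeq RNA Sample Preparation v2 kit, per the labels' protocols. The submitters' processing notes name the builds mm10 and GRCm38 with no role. The aligner, the counter, its use of strand and of shared reads are not given in the sources used here. The neuron tables listed 48709 IDs and those of whole CA listed 47729; the 5 closing summary lines of the latter were left out and were all 0. ChIP peak files were not used here.

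Counts were fitted with edgeR 4.0.16 in R 4.3.3 (TMM factors, filterByExpr by material, quasi-likelihood test, no covariate), with Benjamini-Hochberg adjustment over all 16859 genes tested; the script was tested on simulated data. List sums and the mitochondrial share were compared by two-sided exact permutation over libraries. Symbols came from the supplied table (99.74% of tested genes) and biotypes and spans from RefSeq GRCm38.p6 by symbol (91.79%). Depth ranged from 14.9 to 69.1 M counts, so 3 counts correspond to 0.0405 to 0.208 CPM; these floors cover counting error only. The labels do not say that libraries of a group came from separate animals, so p-values measure the spread between libraries, which may be technical. No pair of libraries matched within sampling noise (chi-square per degree of freedom 4.83 to 82.5).

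Named genes were the first 3 members of each list, up to 4 called members per list and direction with the largest differences and at least 5 CPM, and the 10 largest gains and falls with at least 10 CPM and no Gm or Rik symbol; other members are given as values. Some items that the rule names are not reported here. Members and lists were chosen with earlier results of these data known, and the microRNA pattern was added after the counts were seen. Alternatives covered scaling, filter, tool (DESeq2 1.42.0), threshold, depth, whole CA subsets, replicate block and leaving out each library.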

Additional observations from a re-analysis of the deposited data

Results flagged for a closer look

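In 60 sets of whole CA values (14 marker sums, the mitochondrial share, Xist, 4 Y-linked genes and genes reported above), the highest or lowest library was compared with the other 5, and chance alone would mark about 1 in 20 such sets. Xist was at 614 CPM in whole CA replicate 4 and between 0.122 and 0.292 CPM in the other 5. In the same library the Y-linked genes were far below the others: Ddx3y, Kdm5d and Eif2s3y were each at 0.06354 CPM, against 72.8 to 79.5, 29.8 to 35.9 and 42.2 to 62.6 CPM, and Uty was at 0 CPM, against 19.4 to 25.1 CPM. These 5 marks are of 1 library and are not independent. Kcnq1ot1 was at 17.8 CPM in whole CA replicate 2 and between 7.13 and 9.97 CPM in the others, all below the neuron libraries. The endothelial marker sum was 719.5 CPM in whole CA replicate 6 and 664 to 683.8 CPM in the others, again without overlap with neuron RNA.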

How the results depend on the processing

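The counts of higher and lower genes were 4257 and 3536. They became 7343 and 6755 at an adjusted p alone, and 1718 and 1515 with a minimum of 4-fold. Without the filter 7106 genes were higher. Leaving out each of the 9 libraries gave 4230 to 4390 higher and 3524 to 3667 lower genes. DESeq2's Wald test gave 4194 and 3619. Scaling by library size only moved the median of all genes to 0.23 and the higher share of calls from 54.63 to 61.57%; without the filter it was 61.57% as well, and under the other scalings 53.47 to 54.62%. The CA2 and CA3 marker sum turned to -0.41 without its highest member. The median of cytosolic ribosomal proteins turned to -0.39 among members with at least 10 CPM in whole CA, that of clustered protocadherins to 0.0731 with library size only and to 0.0157 without the filter, and that of replication-dependent histones to 0.0321 without the filter. The cause was not tested.

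Same-numbered neuron and whole CA replicates 1 to 3 had correlated deviations of 0.27, 0.10 and 0.09, so the numbers were not taken to pair the samples, and replicates 2 and 3 each correlated better with another number. With a replicate block over replicates 1 to 3 there were 4723 higher and 3744 lower genes. Over 259 named genes and 21 settings, 5380 of 5430 results kept direction and side of the threshold, 40 lost the call (16 genes), 10 gained it (3 genes) and 0 reversed. Fos, just under 2-fold, passed in some settings, and Eif2s3y, a Y-linked gene, had an adjusted p of 0.1609 with DESeq2. Transcript length was not given here, so that alternative was not run.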

Other observations

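The imprinted region between Dlk1 and Dio3 (chr12:109452485-110281097, GRCm38.p6) was chosen after values were seen and was given no test of its own. It holds 103 RefSeq genes, of which 13 could be tested, 11 were higher in neuron RNA and none was lower. Over all tested genes 25.3% were higher. The 11 are not separate transcripts, since Mir341, Mir1188, Gm24564 and DQ267102 lie inside the span of Rian. Mir453, Mir541 and Mir3072 lie inside that of Mirg, and reads over such genes can come from the holding transcript. Only 7 of the 13 passed the minimum in both materials, and 5 of those were higher. The maternally expressed lncRNAs were all higher: Rian was at 2388, 3105 and 2927 CPM against 519 to 616 CPM, and Mirg at 131, 115 and 123 CPM against 15.8 to 21.2 CPM. Their log2 differences were 2.30 and 2.71, near that of Meg3 at 2.51. Mir341, whose hairpin lies inside Rian, was at 1.92, 1.25 and 1.40 CPM against 0.0615 to 0.490 CPM. Of the paternally expressed protein-coding genes, Rtl1 was higher as well, at 18.3, 15.8 and 19.2 CPM against 2.22 to 4.58 CPM (log2 difference 2.25), and without strand its reads cannot be told apart from those of RNAs transcribed across it. The genes at both ends were not called, Dlk1 at 8.06 CPM ± 0.92 against 12.3 ± 2.9 and Dio3 at 4.80 ± 0.47 against 5.88 ± 0.94.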
